A study of Mus musculus with 8 samples.

Results

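The genes described here encode the GDNF-Ret and Slit-Robo signals, the pair of ligand and receptor systems that set where and how often the ureteric bud grows out in the developing kidney. They are Gdnf, Ret, Gfra1, Gfra2, Robo1, Robo2, Slit2 and Slit3, taken by gene symbol, and make up 8 of the 55558 Ensembl gene features in the count table. All 8 had enough counts to be tested, Ret and Gfra2 through their mK3 libraries alone, Slit3 mainly through mK3 and Robo2 mainly through mK4.

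The series set side by side mK3 and mK4, mouse cell lines that the labels describe as uninduced metanephric mesenchyme and as metanephric mesenchyme differentiated towards epithelium. Both carry the genotype wt, received no treatment and were kept in DMEM with fetal bovine serum, so the groups differ by line only, and each line stands for its state alone. Each line has 3 RNA libraries of 137559391 to 152952351 counts and 1 ATAC-seq library, which reads open chromatin. Whether the 3 libraries came from separate cultures is not said, so every p-value refers to the spread among libraries, possibly technical. Levels are CPM, counts scaled to library size with TMM factors, given as mean ± SD with n = 3 libraries per line. Fold changes compare mK4 with mK3, and a gene is called at a Benjamini-Hochberg adjusted p under 0.05 in edgeR's quasi-likelihood test over 20405 genes.

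In the embryonic kidney, mesenchyme secretes GDNF, which binds the co-receptor GFRA1 and activates the receptor tyrosine kinase RET on the epithelium of the Wolffian duct and ureteric bud. RET signalling makes that epithelium grow towards the mesenchyme and branch. SLIT proteins are large secreted ligands of ROBO receptors, best known for repelling axons at the midline. In the kidney SLIT2 and ROBO2 keep the domain of Gdnf narrow, and their loss gives extra ureteric buds. Introns of Slit2 and Slit3 hold the precursors of the microRNA miR-218, which is known to target Robo1 and Robo2.

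Sequences at these loci, from RefSeq on GRCm38.p6, show what the RNA and chromatin values below refer to. The miR-218 arms are printed with the seed, bases 2 to 8, in capitals. The 5p arm is the same from both precursors, Mir218-1 inside Slit2 (chr5:48223966-48223986, plus strand) and Mir218-2 inside Slit3 (chr11:35616840-35616860, plus strand), while each 3p arm belongs to 1 precursor.
mmu-miR-218-5p: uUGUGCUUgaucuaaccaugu
mmu-miR-218-1-3p: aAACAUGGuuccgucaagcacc
mmu-miR-218-2-3p: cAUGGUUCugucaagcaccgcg

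The 250 bases upstream of 4 start sites follow, the 3 with at least 125 bases under an ATAC peak of 1 line only and that of the ligand gene Gdnf. Peaks also covered the Gfra1 window (240 bases in mK3, 250 in mK4) and 30 bases of a second Gdnf window in mK4, which are not printed. Capitals mark motifs found on either strand, none of which overlap each other here. Of 32851 RefSeq promoters of the same length, 32.7% held the GC box, searched as GGGCGG. The TATA box, searched as TATAAA, was in 12.4%, and the CCAAT box, searched by those letters, in 33.8%. The sites are Gdnf at chr15:7809798-7810047 (plus strand), Robo1 at chr16:72662899-72663148 (plus strand), the Robo2 site with the lowest coordinate at chr16:74411826-74412075 (minus strand) and Slit2 at chr5:47982905-47983154 (plus strand).
Gdnf: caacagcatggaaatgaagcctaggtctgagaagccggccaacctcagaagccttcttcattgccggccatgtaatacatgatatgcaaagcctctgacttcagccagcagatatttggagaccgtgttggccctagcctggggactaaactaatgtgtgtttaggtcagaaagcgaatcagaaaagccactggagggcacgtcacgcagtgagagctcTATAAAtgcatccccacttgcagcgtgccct
Robo1: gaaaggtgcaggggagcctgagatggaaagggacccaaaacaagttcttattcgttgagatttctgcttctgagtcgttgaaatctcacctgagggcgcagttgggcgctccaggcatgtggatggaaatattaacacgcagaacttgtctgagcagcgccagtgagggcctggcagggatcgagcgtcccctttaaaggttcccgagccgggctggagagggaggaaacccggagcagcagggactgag
Robo2: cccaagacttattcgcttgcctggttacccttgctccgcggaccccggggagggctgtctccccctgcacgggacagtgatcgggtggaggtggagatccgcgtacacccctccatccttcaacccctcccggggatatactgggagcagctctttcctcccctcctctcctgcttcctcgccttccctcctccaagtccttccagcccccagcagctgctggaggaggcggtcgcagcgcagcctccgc
Slit2: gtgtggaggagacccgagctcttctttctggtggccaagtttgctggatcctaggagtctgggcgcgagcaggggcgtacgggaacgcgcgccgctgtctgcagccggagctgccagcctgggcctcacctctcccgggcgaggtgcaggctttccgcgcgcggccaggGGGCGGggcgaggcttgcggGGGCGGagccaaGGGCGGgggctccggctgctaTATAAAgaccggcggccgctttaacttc

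Gdnf held 1 TATA box, Slit2 held 3 GC boxes and 1 TATA box, and the Robo1 and Robo2 windows held no match to these letters. CpG dinucleotides numbered 7 in the Gdnf window, 11 in Robo1, 14 in Robo2 and 25 in Slit2, against a median of 6 over all these promoters. The Gfra1 and second Gdnf windows held 10 and 14 CpG and 1 CCAAT box each. The Slit3 window, which no peak covered, held 35 CpG and 6 GC boxes, the most GC boxes among the member start sites in the table.

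The comparison asked how the ligands and receptors differ between mK3, labelled as uninduced, and mK4, labelled as differentiated towards epithelium. Robo1, Gfra2 and Ret fell from mK3 to mK4 and Robo2 rose, while the ligand gene Slit2 fell by a small amount and Slit3 by a large one. Gdnf and its co-receptor gene Gfra1 did not pass the test. In all, 1 of the 8 genes was higher and 5 were lower in mK4, where 40.3% of all tested genes were called, 20.8% higher and 19.5% lower. Since Ret, Gfra2, Slit3 and Robo2 had enough counts only or mainly through the line where they are high, nothing about the set is read from these counts. The libraries of the lines did not overlap for 7 of the 8, Gfra1 being the exception, against 56.1% of all tested genes. Leaving out mK3 replicate 1 or any mK4 library left 0 called higher, leaving out mK3 replicate 2 gave 2, and without mK3 replicate 3 only 3 were lower.

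**Figure D1:**
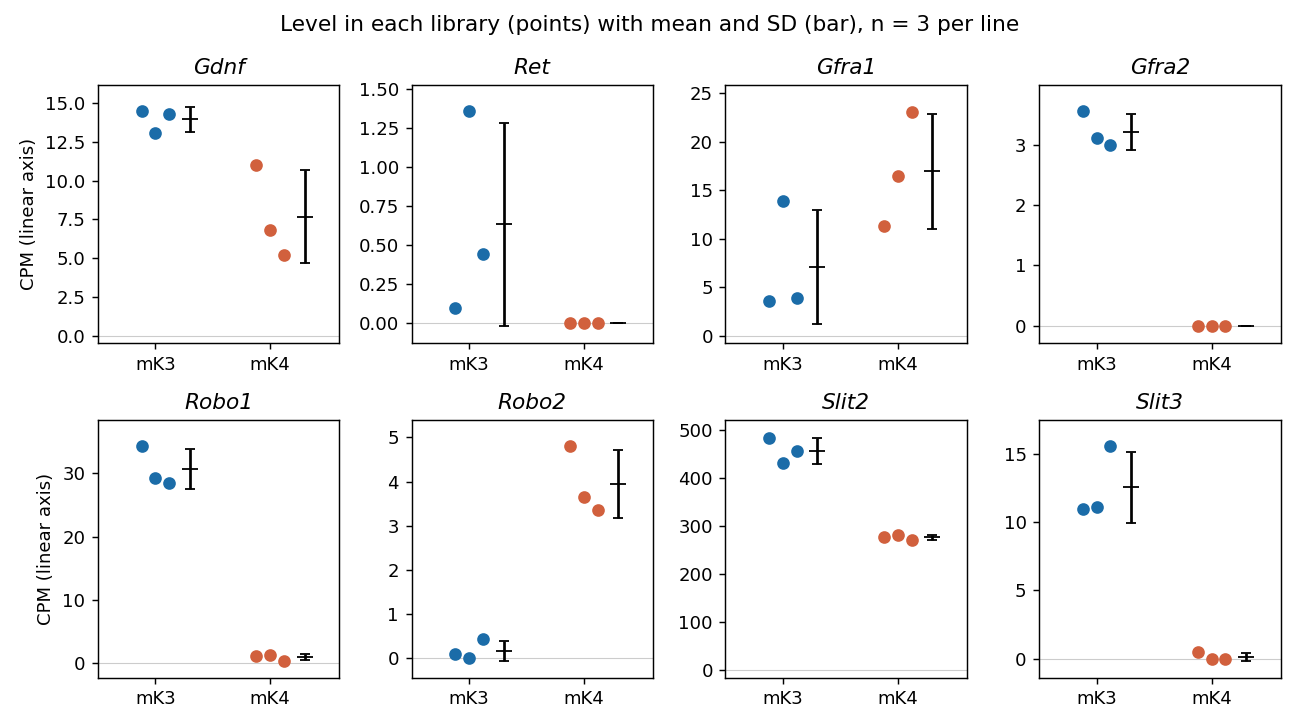
CPM (linear axis, a scale of its own for each gene) of the 8 genes in each of 3 mK3 and 3 mK4 libraries, with points for libraries and a bar for mean and SD. Robo2 is higher in every mK4 library, Gfra1 overlaps between the lines, and Ret and Gfra2 are at 0 in mK4.

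Gdnf (ENSMUSG00000022144, chr15:7810048-7837580), the ligand gene, was counted 2087, 1726 and 1774 times in mK3, against 1506, 1039 and 778 times in mK4. Every mK3 library lay above every mK4 library, and mK4 replicate 1 stood closest to mK3. Mean levels were 13.95 ± 0.796 CPM in mK3 and 7.68 ± 3.02 CPM in mK4, a log2 fold change of -0.86 (SE 0.28) that missed the threshold (adjusted p = 0.0543). It passed without mK4 replicate 1 (-1.21, adjusted p = 0.00775) and in 3 other of 13 alternatives, whose adjusted p ranged from 0.00775 to 0.146.

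Gfra1 (ENSMUSG00000025089, chr19:58235581-58455946) encodes the co-receptor that presents GDNF to RET. The mK3 libraries held 512, 1838 and 480 of its counts, the mK4 libraries 1545, 2505 and 3472. The mK3 library with 1838 counts lay among the mK4 libraries, so the lines overlapped. Means were 7.11 ± 5.88 and 16.97 ± 5.92 CPM, with a log2 fold change of 1.26 (SE 0.60, adjusted p = 0.151). Leaving out mK3 replicate 2 gave 2.20 with an adjusted p of 0.00941, the lowest over 13 alternatives, in which it reached 0.335. Within mK4, the library with the most Gdnf counts had the fewest Gfra1 counts.

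Gfra2 (ENSMUSG00000022103, chr14:70890107-70979840) encodes the related co-receptor that prefers neurturin. Counts were 510, 411 and 371 in mK3, with 0 in each mK4 library. The mK3 libraries were close to each other (3.21 ± 0.296 CPM), and the gene fell at least 146-fold against a floor of 3 counts per library, 0.022 CPM (adjusted p = 0.000248). It was called in all 12 alternatives that tested it.

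Ret (ENSMUSG00000030110, chr6:118151748-118197744), the gene of the signalling receptor, was low in mK3 and at 0 in mK4, as 2.05% of tested genes were. With Gfra2 this holds for 2 of the 8. Its counts were 14, 180 and 55 in mK3 and 0 in each mK4 library. The mK3 mean of 0.633 CPM had an SD of 0.653 CPM, since replicate 2 held most of the counts, the same library that was highest for Gfra1. Against the floor Ret was at least 28.8-fold lower in mK4 (adjusted p = 0.0188), a bound that was 12.3-fold without mK3 replicate 2. The call was lost without mK3 replicate 3 (adjusted p = 0.0518) and held in 10 of 12 alternatives, whose adjusted p ranged from 7.09e-06 to 0.0539.

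Bounds against a 0 hold only if a 0 means few reads, and these tables give reason for care. Of 12982 protein-coding genes with at least 50 counts in some mK3 library, 548 had 0 in another mK3 library, and for mK4 the numbers were 739 of 13215. Fewer expressing cells and less RNA per cell cannot be told apart in these bulk libraries.

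Robo1 and Robo2 encode receptors with the same domain plan, and they moved in opposite directions. Robo1 (ENSMUSG00000022883, chr16:72027518-73047491) reached 4930, 3876 and 3548 counts in mK3, but 165, 196 and 67 in mK4. Each mK3 library was far above each mK4 library, and the mean fell from 30.7 ± 3.13 to 0.981 ± 0.465 CPM, 31.3-fold lower. The log2 fold change was -4.97 (SE 0.44, adjusted p = 0.00036), and the call held in all 12 alternatives that tested it.

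Robo2 (ENSMUSG00000052516, chr16:73891976-75447443) showed the reverse, 12, 0 and 53 counts in mK3 against 656, 556 and 503 in mK4. All mK4 libraries lay above all mK3 libraries, and the mean rose from 0.17 ± 0.226 to 3.94 ± 0.768 CPM, 23.1-fold higher. The log2 fold change was 4.53 (SE 1.34, adjusted p = 0.0373). This call rested on few mK3 counts. It was lost without mK3 replicate 1 (adjusted p = 0.117) or mK4 replicate 1 (0.0944), 2 (0.0822) or 3 (0.0772) and with no filter on low counts (0.0589), and held in 6 of 12 alternatives, with a range of 0.000498 to 0.117. The log2 fold change was 3.95 without mK3 replicate 2 and 6.51 without mK3 replicate 3.

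Within a library, the ratio of Robo1 to Robo2 counts was 411 in mK3 replicate 1 and 66.9 in replicate 3, with no Robo2 count in replicate 2. In mK4 the ratios were 0.252, 0.353 and 0.133. A ratio of counts depends on transcript lengths and is no ratio of levels. Its shift between the lines does not if both lines use the same transcripts, which was not tested. Every mK4 ratio was below every mK3 ratio that could be formed, which follows from the opposite, non-overlapping changes of Robo1 and Robo2.

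Slit2 encodes the ligand whose loss, like that of ROBO2, gives extra ureteric buds. Counts of Slit2 (ENSMUSG00000031558, chr5:47981291-48307735) were 69464, 56948 and 56440 in mK3, against 37782, 42705 and 40600 in mK4. The libraries of a line were close and the lines did not overlap. The mean fell from 456 ± 26.6 to 276 ± 5.08 CPM, 1.65-fold lower, with a log2 fold change of -0.72 (SE 0.06, adjusted p = 0.000293). It was called in all 13 alternatives.

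Slit3 (ENSMUSG00000056427, chr11:35121456-35708507), another ligand gene of the family, gave 1575, 1472 and 1931 counts in mK3, then 68, 0 and 0 in mK4. All the mK4 counts came from replicate 1. The mean fell from 12.5 ± 2.6 to 0.166 ± 0.288 CPM, 75.5-fold lower, and the log2 fold change was -6.26 (SE 1.66, adjusted p = 0.0263). The call was lost when any mK3 library was left out (adjusted p = 0.0594, 0.0603 and 0.0674 without replicate 1, 2 and 3), and held in 8 of 12 alternatives, with a range of 0.000587 to 0.0674. Without mK4 replicate 1, where mK4 is at 0, Slit3 was at least 628-fold lower, and without mK4 replicate 2 or 3 the log2 fold change was -5.66 or -5.67. Slit2 counts per Slit3 count were 44.1, 38.7 and 29.2 in mK3 and 556 in the only mK4 library with Slit3 counts.

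**Figure D2:**
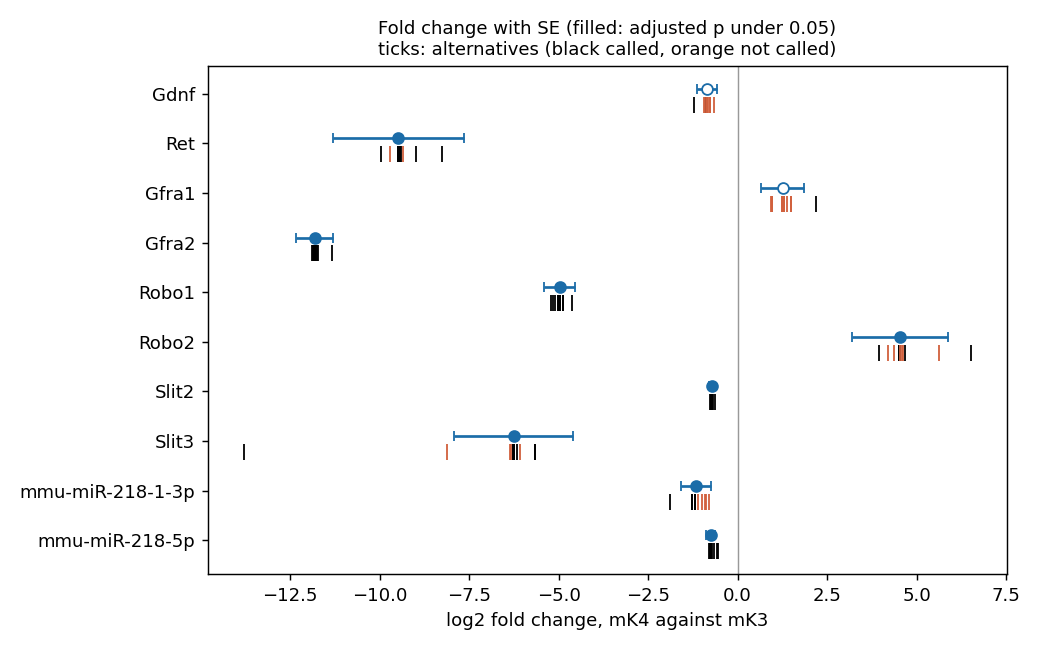
Log2 fold change of mK4 against mK3 for the 8 genes and the miR-218 arms, with SE as horizontal bars and a tick for each alternative fit. Points right of 0 are higher in mK4, and orange ticks show alternatives without a call, which for the called Ret, Robo2, Slit3 and miR-218-1-3p are lost calls. Fitted values of Ret and Gfra2, at 0 in mK4, are no bounds.

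The miR-218 arms are a readout of the Slit2 and Slit3 loci that was counted apart from the genes. The 5p arm printed above was counted 4759, 4326 and 3972 times in mK3, against 2049, 3912 and 3794 times in mK4. Scaled to miRNA counts only, every mK3 library was above every mK4 library, at 954 ± 123 against 569 ± 18.9 CPM of miRNAs. The log2 fold change was -0.75 (SE 0.13, adjusted p = 8.66e-05), where 35.1% of 461 tested miRNAs were lower and 67.7% were called either way. It was called in all 10 alternatives. Slit2 had a log2 fold change of -0.72, but the 5p reads cannot be assigned to Mir218-1 or Mir218-2. Its seed was shared by 1 other mature name in the RefSeq table, mmu-miR-7002-3p.

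The 3p arm of Mir218-1, which lies in Slit2 only, was counted 33, 48 and 27 times in mK3, against 8, 41 and 13 times in mK4. Scaled levels overlapped between the lines, at 7.84 ± 2.18 and 3.4 ± 2.33 CPM of miRNAs. The log2 fold change was -1.15 (SE 0.42, adjusted p = 0.0252), and the call was lost in 5 of 10 alternatives (adjusted p 0.000961 to 0.148), among them without mK3 replicate 1 (0.0936) or 2 (0.148) and mK4 replicate 1 (0.0504) or 3 (0.126). Without mK4 replicate 2 the log2 fold change was -1.90. The 3p arm of Mir218-2 is not analysed here. In the gene table the precursor Mir218-1 had 6, 7 and 7 counts in mK3 against 1, 5 and 4 in mK4, and Mir218-2 had 0 in all 6 libraries, too few to set the precursors apart.

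**Figure D3:**
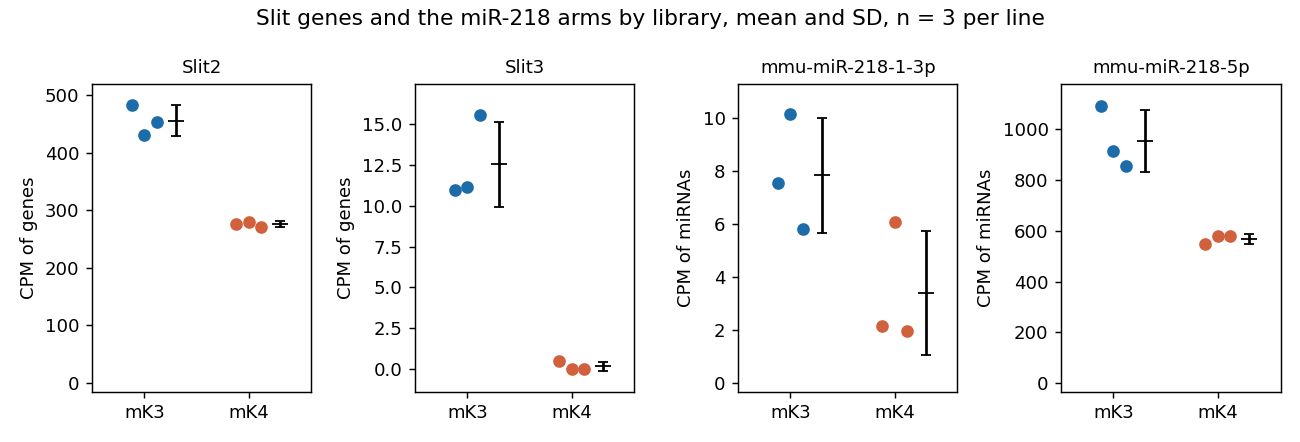
Slit2 and Slit3 in CPM of genes and the miR-218 arms in CPM of miRNAs (linear axes that include 0), by library, with mean and SD of 3 libraries per line. Slit2 and miR-218-5p are lower in every mK4 library, and miR-218-1-3p overlaps between the lines.

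Open chromatin at these loci came from 1 library per line, so no difference was tested. The authors listed 22477 peaks in mK3 and 34710 in mK4 on the numbered and sex chromosomes, and their fold enrichment is used only to describe peaks within a list. Within 50 kb of the 8 genes lay 24 peaks of mK3 and 38 of mK4. Of these, 10 and 11 overlapped a peak of the other line, where 71.9% of all mK3 peaks and 47% of all mK4 peaks did. Start sites were taken from the RefSeq promoter table, which gave 9 for 6 of the genes. Start sites of Ret and Gfra2 are not analysed here. A start-site peak, within 1 kb, was listed for 3 of these 6 genes in mK3 and 4 in mK4, where 41.6% and 45.8% of 17492 protein-coding genes had them. Gdnf and Gfra1 had them in both lines, 2 of 6 against 38.6% of protein-coding genes.

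At Robo1, which was higher in mK3, the only start site in the table had a peak in mK3 only. That site lies inside this plus-strand gene, 635.6 kb from its lower-coordinate end, where no start site was given. In mK3 a peak at chr16:72662872-72664130 covered all 250 bases of the Robo1 window printed above, with a fold enrichment of 5.80, and no mK4 peak lay within 1 kb. The RefSeq lncRNA Gm29908 (chr16:72654472-72663066) ends inside that window, so the peak lies over both. A start-site peak in mK3 only was found for 3.04% of protein-coding genes. The strongest Robo1 peak of mK3 was at chr16:72897111-72897667 (8.15) inside the gene, and the mK4 peaks were at chr16:72995788-72996496 (7.19) and chr16:73037777-73038086 (4.18). None of the Robo1 peaks overlapped between the lines.

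At Robo2, 1 of the 3 start sites in the table had peaks, in mK4 only, as was so for 7.22% of protein-coding genes. They were chr16:74411542-74411950, with a fold enrichment of 4.54 and covering 125 of the 250 printed bases, and chr16:74412687-74413273 (3.63). Both were weak, with -log10 q of 7.98 and 4.62, and are lost at a minimum of 10. The strongest peaks were chr16:74526593-74526842 (5.09) in mK4 and its mK3 partner chr16:74526533-74527048 (6.74), beside which mK3 had another at chr16:74530657-74530875 (4.54). The start site with peaks is the one with the lowest coordinate, 114768 bp from that shared mK4 peak. It lies inside this minus-strand gene, 519.8 kb from its lower-coordinate end. The site at the other end of the gene, at 1555.3 kb, had no peak within 1 kb in either line.

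Slit2 went the other way within 1 kb of its start site. The mK4 peak chr5:47982905-47983314 (7.78) covered all 250 printed bases, including the GC boxes and the TATA box, whereas the nearest mK3 peak, chr5:47985270-47985521 (3.04), began 2115 bp from the start site. Slit2 RNA was 1.65-fold lower in mK4. A shared peak lay 23606 bp beyond the gene, at chr5:48331341-48331815 (9.46, the strongest Slit2 peak of mK3) and chr5:48331397-48331790 (5.99). A further mK3 peak stood at chr5:47938666-47938960 (5.96). Slit3 had no start-site peak in either line. Its shared peak, at chr11:35587021-35587722 in mK3 (7.59) and chr11:35587141-35587499 in mK4 (8.83), was the strongest of each line, and the next were chr11:35249987-35250300 (4.48) in mK3 and chr11:35451700-35451921 (3.63) in mK4.

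Gdnf had a start-site peak in both lines, chr15:7809842-7810089 in mK3 (2.41) and chr15:7809883-7810285 in mK4 (3.04), over 206 and 165 of the printed bases. In mK4, peaks at chr15:7812806-7813047 (3.91) and chr15:7813188-7813506 (2.89) lay near the second start site, where mK3 had none. The strongest Gdnf peaks were shared and lay beyond the gene, at chr15:7862595-7863167 (5.56) and chr15:7877708-7878246 (5.26) in mK3 and chr15:7862684-7863414 (7.63) and chr15:7877520-7878436 (9.62) in mK4. Gfra1 also had start-site peaks in both lines, chr19:58454994-58455638 in mK3 (2.83) and chr19:58454846-58455045 (2.87) and chr19:58455206-58456164 (4.06) in mK4. Its other mK3 peak was chr19:58469531-58469757 (3.55), and the strongest mK4 peaks were chr19:58496106-58496588 (6.76) and chr19:58275339-58275636 (6.06).

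Ret and Gfra2, both at 0 counts in mK4, differed in their peaks. Ret had 4 mK4 peaks, led by chr6:118139072-118139414 (5.89) and chr6:118221640-118222015 (5.25), outside the gene, and 1 mK3 peak at chr6:118139165-118139364 (3.23), which overlapped the first of these. Gfra2 had 1 peak, in mK3 and inside the gene, at chr14:70911287-70911655 (2.74), and none in mK4.

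**Figure D4:**
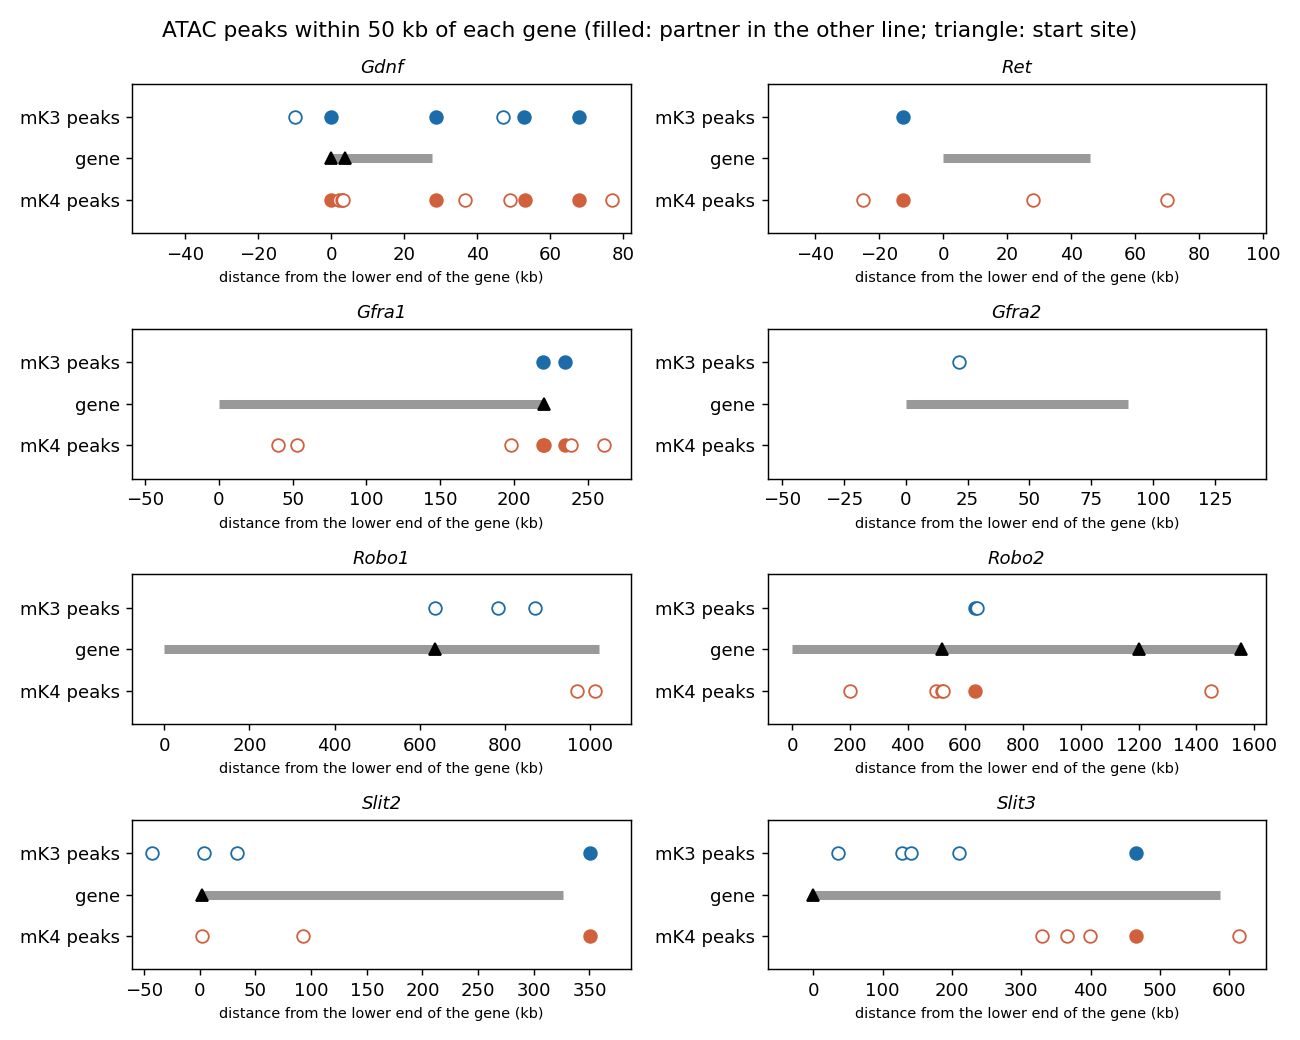
Peaks of mK3 (upper row, blue) and mK4 (lower row, orange) by distance in kb from the lower-coordinate end of each gene (grey bar), filled where a peak of the other line overlaps, with triangles at start sites. Within 1 kb, Robo1 has a peak at its only listed start site, inside the gene, in mK3 only. Slit2 and 1 Robo2 site inside the gene have peaks in mK4 only.

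Genes of these pathways were described from 6 lists, which together held 137 genes, 119 of them tested. Of these, 31 were higher and 42 lower in mK4 (61.3% called, against 40.3% of all tested genes). The 8 genes described first are among them, with 1 higher and 5 lower, so 61.3% is not a share of other genes alone. The lists were chosen with earlier results known, and no list was tested as a whole. Of the GDNF family list, 6 genes besides Gdnf, Ret, Gfra1 and Gfra2 were tested, and 4 were higher and 0 lower (66.7% called). Of these 4 only Nrtn encodes a ligand of the family, and the others are not among its GFRA and RET receptors. Nrtn, which encodes neurturin, the preferred ligand of GFRA2, rose from 0.629 ± 0.0384 to 2.74 ± 1.09 CPM (adjusted p = 0.00495). Sort1 and Sorl1, genes of intracellular sorting receptors, rose from 137 ± 11.8 to 740.5 ± 27.9 CPM (1.52e-05) and from 0.132 ± 0.229 to 85.3 ± 3.11 CPM (0.00173). Sorl1 had 57 counts in mK3 replicate 1 and 0 in the other mK3 libraries, and its log2 fold change of 9.26 was 16.53 without that library. The value of 16.53 is a fit against mK3 libraries at 0 and is no bound. Gfra3 and Gfral had 0 counts in all libraries, and Gfra4 had 6 in 1 mK3 library.

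Of 31 tested Ret adaptors and effectors, 13 were lower and 2 higher, 48.4% called. Of all tested genes 40.3% were called, 19.5% lower and 20.8% higher, so the list was more one-sided. The count of higher genes was 1 without mK3 replicate 2 or mK4 replicate 1, 4 without mK4 replicate 2 and 5 without TMM, where 10 were lower. Akt1 and Frs2, a kinase and a docking protein gene, fell from 179 ± 16.1 to 72.7 ± 2.58 CPM (adjusted p = 0.000108) and from 133 ± 6.03 to 56.3 ± 0.471 CPM (5.62e-05), and the adaptor gene Grb10 from 599.8 ± 25.7 to 334 ± 4.25 CPM (0.000103). Sos2, an exchange factor gene for RAS, rose from 51.9 ± 5.28 to 122 ± 14.7 CPM (0.000539), and Src from 14.3 ± 3.2 to 22.9 ± 3.33 CPM (0.0348). The call of Src was lost in 5 of 13 alternatives, among them without mK3 replicate 2 (0.0969) or 3 (0.103) and mK4 replicate 1 (0.082) or 3 (0.104).

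Genes that RET signalling is known to raise in the ureteric bud were higher in mK4 in 8 of 16 cases and lower in 3 (68.8% called against 40.3% of all tested genes), with a median log2 fold change of 1.44 against 0.02 over all tested genes, with Ret itself at 0 there. Dusp6, whose product dephosphorylates ERK, rose from 4.81 ± 0.903 to 34.3 ± 1.78 CPM (adjusted p = 7.52e-05). Etv4, a transcription factor gene of branching, rose from 6.68 ± 0.501 to 25.8 ± 3.78 CPM (0.000204), and the receptor gene Met from 138 ± 23.9 to 641 ± 23.7 CPM (8.64e-05). The matrix protease gene Mmp14 fell from 71.6 ± 11.9 to 0.0288 ± 0.0444 CPM (0.000111), Il1rl2 from 30.6 ± 2.16 to 0.0679 ± 0.118 CPM (0.00206) and the RTK inhibitor gene Spry2 from 10.5 ± 0.794 to 6.04 ± 0.786 CPM (0.00837). Mmp14 had 0, 1 and 12 counts in mK4, so its value there rests mainly on replicate 3. Il1rl2 had 31 counts in mK4 replicate 2 and 0 in the others. Without these libraries the log2 fold changes moved from -11.20 to -14.00 and from -8.76 to -15.04. The -14.00 of Mmp14 is a fit against 1 count in mK4. For Il1rl2 the -15.04 is a fit against mK4 libraries at 0 and is no bound, and without mK4 replicate 3 its log2 fold change was -8.18. These genes also respond to other receptors, and the part of RET or of any other receptor in these values was not tested.

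Regulators of Gdnf in the mesenchyme went both ways, with 6 of 19 higher and 6 lower (63.2% called against 40.3% of all tested genes). Eya1, Pax2 and Sall1 were higher in mK4. Eya1 rose from 10.1 ± 0.818 to 186.5 ± 31.1 CPM (adjusted p = 1.85e-05), and Pax2 and Sall1, at 0 in mK3, reached 29.95 ± 4.11 and 10.3 ± 0.16 CPM (5.63e-05 and 6.83e-05). Osr1 fell from 11.2 ± 0.779 to 2.25 ± 0.235 CPM (0.000131), the BMP antagonist gene Grem1 from 283 ± 5.97 to 2.21 ± 0.0986 CPM (1.6e-06), and Hoxc11 from 1.44 ± 0.371 CPM to 0 in mK4 (0.00093).

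Among Slit and Robo co-receptors, 13 further genes were tested, of which 4 were higher and 3 lower (53.8% called against 40.3% of all tested genes). Heparan sulfate chains assist the binding of SLIT to ROBO, and genes of these proteoglycans and their synthesis fell in 3 cases. Sdc2 fell from 511 ± 0.922 to 150.4 ± 5.62 CPM (adjusted p = 1.2e-05), Ext1 from 1394.5 ± 49 to 452 ± 21.3 CPM (1.78e-05) and Sdc1 from 34.7 ± 1.96 to 23.9 ± 1.81 CPM (0.00631). Gpc1 and Hs6st1 of the same system rose, from 79.1 ± 7.24 to 212 ± 15.3 CPM (0.000117) and from 24.1 ± 8.55 to 67.2 ± 3.88 CPM (0.00719). Flrt3, a gene of a ROBO1 partner protein, went from 0 in mK3 to 8.58 ± 1.73 CPM in mK4 (0.000164). Slit1 counts were 341, 192 and 291 in mK3, against 540, 0 and 0 in mK4, where Slit3 too was counted in replicate 1 alone (adjusted p = 0.838), and Robo3 and Robo4 had 15 and 5 counts in 1 library each.

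Of 26 effectors inside the cell, 12 fell and 6 rose (69.2% called, where 19.5% of all tested genes were lower and 20.8% higher). Srgap1, a ROBO-bound GTPase-activating protein gene, fell from 98.4 ± 11 to 23.3 ± 2.37 CPM (adjusted p = 8.11e-05), Rhoa from 542 ± 10.6 to 221 ± 10.7 CPM (3.34e-05) and Enah from 242 ± 8.05 to 117.5 ± 3.09 CPM (6.48e-05). Dock1, an activator of RAC, rose from 97.8 ± 1.11 to 276 ± 1.29 CPM (1.61e-05), the adaptor gene Nck2 from 2.44 ± 0.525 to 8.75 ± 0.839 CPM (0.000963), and Usp33, which encodes a ROBO1-binding deubiquitinase, from 70.1 ± 3.1 to 161 ± 6.92 CPM (7.33e-05).

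**Figure D5:**
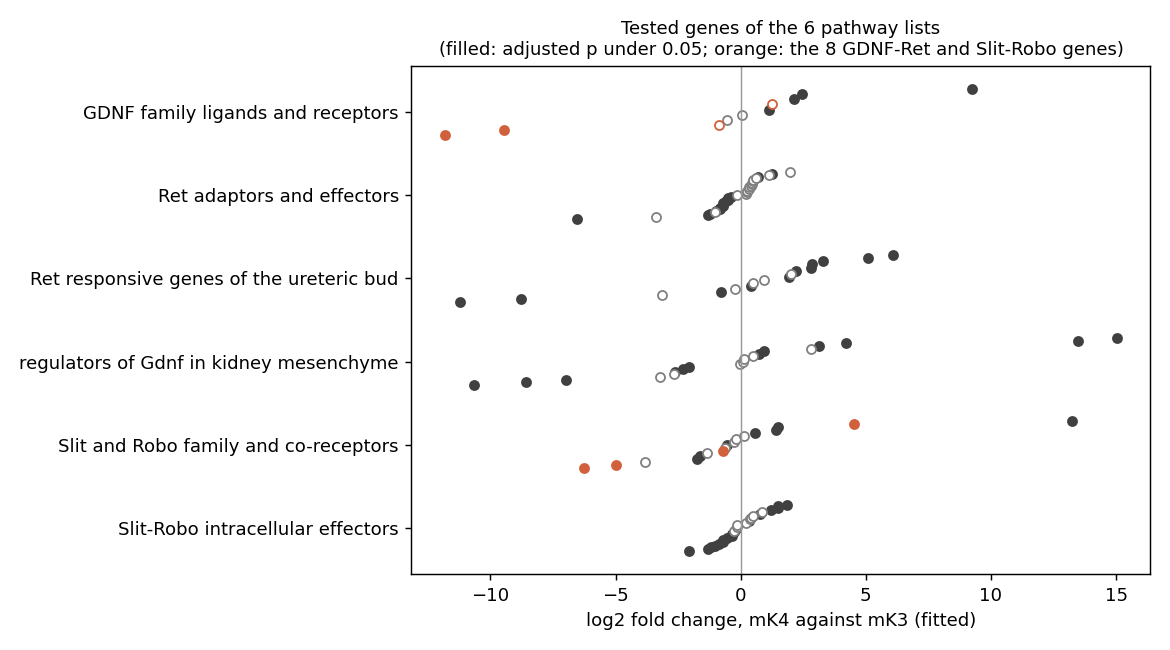
Fitted log2 fold changes of tested genes in the 6 pathway lists, filled where the adjusted p is under 0.05 and orange for the 8 genes described first. Of these lists the RET-responsive genes have the highest median, 1.44, and both directions occur in each list.

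The genes whose pattern was most like each member were found by the Euclidean distance between centred log2 CPM over the 6 libraries. Slit2 was nearest to Mast2 (0.054) and Copb2 (0.092), Gdnf to Cyb5d1 (0.22) and Pqbp1 (0.271), and Gfra2 to Hoxc10 (0.304) and Gap43 (0.358). Slit3 was nearest to Pir (0.422) and Il31ra (0.485), both also counted in mK4 replicate 1 only, with 75 and 64 counts. Robo1 was nearest to Syk (0.641) and Scd1 (0.706), Robo2 to Endod1 (0.806) and Pax9 (1.006), Gfra1 to Zfp362 (0.813) and Unc13a (0.855), and Ret to Gucy1a1 (1.287). Gucy1a1 had 74 counts in mK3 replicate 2, the most of the 3 mK3 libraries, as Ret did.

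Markers of the labelled and of other cell types were read in the same libraries, where 40.3% of all tested genes were called. Epithelial markers were near 0 in both lines, with a sum over 8 genes of 0.181 to 1.18 CPM in mK3 and 0.434 to 1.25 CPM in mK4, and Krt18, Cldn3 and Cldn4 at 0 in all libraries. These 8 markers thus do not show an epithelial state in mK4, which is labelled as differentiated towards epithelium. Markers of the ureteric bud, the tissue in which RET acts, summed to 4.35 to 7.01 CPM in mK3 and 10.9 to 11.7 CPM in mK4. Of 5 tested genes 2 were higher, Hoxb7 (1.27 to 5.24 CPM) and Tfap2a (0.0116 to 2.69 CPM), and 0 lower. Among those not called, Wnt11 (0.733 to 0.083 CPM) and Gata3 (3.66 to 2.5 CPM) had lower means in mK4, and Upk1a (0.376 to 0.567 CPM) a higher mean. Wnt9b was at 0 in all libraries. Neuronal and Schwann cell markers, cells that also use these receptors, summed to 29.2 to 46.9 CPM in mK3 and 1.18 to 2.62 CPM in mK4, with 3 of 5 tested genes lower. Most of this was Syt1, at 36.3 ± 9.01 CPM in mK3, while Snap25 was at 0 in all 6 libraries. Stromal markers summed to 971 to 1235 CPM in mK3 and 185 to 213 CPM in mK4, with 5 of 7 tested genes lower and 2, Foxd1 and Tbx18, higher. Most of the mK3 sum was Col1a1, which fell from 584 ± 130.4 to 0.0706 ± 0.0616 CPM (adjusted p = 3.23e-05). Cap mesenchyme markers summed to 20.8 to 22.2 and 200.5 to 268 CPM, most of the latter being Eya1, with 3 of 5 tested genes higher and 2, Six2 and Osr1, lower. Pax2, Wt1, Sall1 and Meox1 were at 0 in every mK3 library, and Six2 in every mK4 library. Endothelial markers summed to 3.6 to 4.63 CPM in mK3 and 7.38 to 8.17 CPM in mK4, but only Cdh5 was higher, at 0 and 7.35 ± 0.402 CPM, and 2 of 4 tested genes, Kdr and Tek, were lower. No leukocyte marker of 3 tested was called, and the sums over all 6 were 1.85 to 3.52 and 3.29 to 4.74 CPM. The part of these differences in the results for Ret, Gfra2, Robo1 and Slit3 was not tested.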

How the data were processed

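RNA counts and ATAC peak lists of the mK3 and mK4 lines were used as deposited. The deposited table holds whole-number counts per feature, not normalized. The submitters' processing notes name the build mm10 and, without their roles, deepTools, MACS3, bedtools, SAMtools, Bowtie2, STAR 2.7.10a and HTSeq 2.0.2. Neither the strand setting of the counting nor the options of the peak caller is given in the sources used here, so reads of a gene and of a transcript overlapping it cannot be told apart. RefSeq spans that overlap a member number 2 for Gfra1, 1 for Gfra2, 4 for Robo1, 9 for Robo2, 1 for Slit2 and 6 for Slit3. The deposited peak lists, 1 per line, give fold enrichment (a ratio), -log10 p and -log10 q as the authors' peak caller wrote them.

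Genes (133899125 to 146187601 counts per library) and miRNAs (3191483 to 6755311) were fitted apart with edgeR 4.0.16 in R 4.3.3, with filterByExpr, TMM and the robust quasi-likelihood test. P-values are two-sided and adjusted by Benjamini and Hochberg over all tested features. CPM use TMM-scaled class totals, and SE is the log2 fold change over the square root of the F statistic. Floors of 3 counts per library cover counting error only, while SD and SE carry the spread among libraries. Peaks of the lines overlap when they share at least 1 bp. Alternatives were DESeq2 1.42.0, RLE size factors, no TMM, other filters, robust off, a replicate block, each library left out, and other peak settings.

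The 8 members and the lists were chosen with earlier results of these data known. The naming rule took all members, up to 3 called genes per list and direction with the smallest adjusted p, the 2 protein-coding genes nearest in pattern to each member among those with a mean within 3 log2 units (prior count 2), the miR-218 arms, all peaks within 1 kb of a start site and the 2 strongest peaks per member and line. Slit1, Robo3, Robo4, Gfra3, Gfra4, Gfral and the marker genes were named outside it, after their values were seen. Circular RNAs carry no host gene in the table and were left out. Some genes that these rules would name are not reported here.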

Additional observations from a re-analysis of the deposited data

How the results depend on the processing

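No value changed sign in any alternative. Of the 8 genes, the counts called higher and lower in mK4 were 1 and 5, and became 0 and 5 without a filter on low counts, 0 and 2 with a filter at 1 CPM in every library, under which Ret, Gfra2, Robo1, Robo2 and Slit3 were not tested, and 0 and 3 with the replicate block. Leaving out 1 library gave 0 to 2 higher and 3 to 6 lower. Gdnf passed with DESeq2 (log2 fold change -0.88), RLE size factors (-0.88) and the filter at 1 CPM (-0.84). Robo2 lost its call without a filter (4.54), and miR-218-1-3p without TMM (-0.98). Leaving out a library gave ranges of -1.21 to -0.65 for Gdnf, -9.97 to -8.26 for Ret, 0.94 to 2.20 for Gfra1, 3.95 to 6.51 for Robo2, -13.78 to -5.66 for Slit3 and -1.90 to -0.80 for miR-218-1-3p. The Slit3 value of -13.78 is a fit against mK4 libraries at 0 and is no bound. Without TMM the median over all genes moved by 0.11.

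The labels do not say whether the replicate numbers pair the libraries. Deviations of same-numbered libraries correlated at -0.019, 0.021 and 0.007, and not every library correlated best with its own number. Correlations over all tested genes cannot exclude that same-numbered libraries share a culture or day. With the replicate block 3281 genes were higher and 3129 lower, against 4237 and 3988, and Ret (-9.34), Robo2 (5.62) and Slit3 (-8.12) were not called. Other than Slit2, Gfra2, Robo1 and miR-218-5p, every member or arm changed its side of the threshold in some alternative, and the cause was not tested. With peaks of -log10 q of at least 10 only, the members had 8 mK3 and 16 mK4 peaks, 5 and 5 of them with a partner, and start-site peaks remained for 1 gene in mK3 (Robo1) and 3 in mK4 (Gdnf, Gfra1 and Slit2). The Robo2 start-site peaks were lost, and those of Gdnf and Gfra1 were then in mK4 only. With a 5 kb window the mK3 peak 2115 bp from the Slit2 start site also counted, so Slit2 had start-site peaks in both lines. Counts for Ret, Robo2 in mK3 and Slit3 in mK4 limit what their libraries can show. Over 44 other results, 545 of 564 alternative values kept their direction and call or, for counts, stayed within 1.5 times, 14 counts moved by more, and 5, those of Src, lost the call.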
